A study of Oryctolagus cuniculus with 12 samples.

Results

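Cathepsins B, K and S, encoded by CTSB, CTSK and CTSS, were measured in the rabbit basilar artery, the vessel along the brain stem. Control arteries were compared with arteries taken after an experimental subarachnoid hemorrhage (SAH). Every non-control probe that the array's gene names, accessions or descriptions assign to 1 of these genes was taken, which gave 11 of 43623 probes, for 3 of the 10176 genes named on the array: 1 probe for CTSB, 5 for CTSK and 5 for CTSS. The 12 single-colour arrays, 1 per sample, fell into 4 groups of 3: control arteries, which the series calls day 0, and arteries taken 3, 5 and 7 days after the hemorrhage. The labels give total RNA of the basilar artery as the material. They give no strain, age or sex, do not say how the hemorrhage was made or whether the controls had sham surgery, and leave unsaid whether a group's samples are separate animals. The p-values below therefore measure no more than the spread of these samples, part or all of which may be technical.

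Cathepsins are proteases that are made as inactive precursors, sorted to the lysosome and activated there at acid pH. Cathepsins B, K and S belong to the papain-like cysteine proteases and are held in check by cystatins and stefins. Cathepsin B is found in the lysosomes of most cells, cathepsin K is best known as the collagenase with which osteoclasts resorb bone, and cathepsin S trims the invariant chain in antigen-presenting cells and stays active at neutral pH. Cathepsins K and S can both cut elastin and are studied in the remodelling of artery walls.

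All levels below are log2 signals on a scale whose zero is the 75th percentile of the same array's signals, so that they carry no unit. A difference of 1 on this scale is a doubling of the signal. A probe was called where its adjusted p (limma, Benjamini-Hochberg over the 26431 tested probes) was below 0.05, and the 75th percentile itself lay between 127 and 191 intensity units. Control replicate 2 stood apart: 50.1% of its spots were well above background, where the other 11 arrays had 58.2% to 64.0%. The arrays sat on 3 slides, 1 array of each group per slide, and every group was always in the same position, so that position and group cannot be told apart. All 11 cathepsin probes were well above background on all 12 arrays, and none was saturated.

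The sequences of the probes show what the values stand for, since the 5 probes of a gene are shifted copies of each other and not 5 separate measurements of its RNA. For CTSK and CTSS the brightest probe is printed with the bases common to all 5 probes of the gene in capitals, and the second CTSS probe is the one with the other placement on the chromosome. The genome build of the array's coordinates is not given in the sources used here.
CTSB: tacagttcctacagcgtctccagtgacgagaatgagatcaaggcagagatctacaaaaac
CTSK: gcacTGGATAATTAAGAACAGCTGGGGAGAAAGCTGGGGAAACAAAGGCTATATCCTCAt
CTSS: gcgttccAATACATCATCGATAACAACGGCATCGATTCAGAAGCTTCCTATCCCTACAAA
CTSS, second probe: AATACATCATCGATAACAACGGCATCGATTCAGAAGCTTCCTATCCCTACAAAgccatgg

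The 5 CTSK probes share 55 bases and cover 65 bases of the transcript in all. The 5 CTSS probes share 53 bases and cover 67. The array places the CTSB probe at chr2:38151902-38151961, where the 60 bases of the probe are unbroken. It places the printed CTSK probe at chr13:41358096-41359628, a span of 1533 bases for 60 bases of probe, so that all 5 CTSK probes cross a gap of 1473 bases. The printed brightest CTSS probe lies unbroken at chr13:41384028-41384087, and the second one reaches across a gap of 1828 bases to chr13:41384035-41385922. No other probe on the array shared a run of 20 bases with a CTSB, CTSK or CTSS probe on either strand, a count of 0 for each gene. The CTSB probe is tied on the array to an Ensembl transcript, an expressed tag and a predicted RefSeq transcript, and its value therefore rests on 1 probe alone.

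CTSB was higher in every array after the hemorrhage than in every control. Its level was 2.29, 1.67 and 1.61 in control replicates 1, 2 and 3 (mean 1.86 ± 0.37, SD, n = 3). It was 2.93, 2.82 and 3.51 on day 3, 2.83, 2.73 and 3.38 on day 5, and 2.89, 2.75 and 2.81 on day 7. The lowest array after the hemorrhage, day 5 replicate 2, lay above the highest control, replicate 1, and the 3 arrays of day 7 lay closest together (2.82 ± 0.07, SD, n = 3).

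CTSB rose on day 3 by 1.23 (SE 0.25, 95% interval 0.69 to 1.77, 2.34-fold, limma adjusted p = 0.0138) and on day 5 by 1.12 (adjusted p = 0.0417). On day 7 the difference was 0.96 and was not called (adjusted p = 0.0692), while over the mean of the 3 days the rise was 1.1025, or 2.15-fold (adjusted p = 0.00861). More cells that hold the RNA and more RNA per cell cannot be told apart in RNA of a whole vessel, for CTSB or for any gene below. Of all tested probes, 4.71% were called higher on day 3, 1.78% on day 5, 1.86% on day 7 and 5.02% over the mean of the 3 days. The direction was the same within each slide: over the 3 days the difference from the control was 0.59 on slide 1, 1.09 on slide 2 and 1.62 on slide 3. With the slide as a block the adjusted p was 0.0157 on day 3, 0.0430 on day 5 and 0.0580 on day 7. The call of day 3 was lost without day 3 replicate 3 (1.02, adjusted p = 0.0580). The call of day 5 was lost when any array other than control replicate 1 or day 3 replicate 3 was left out (adjusted p 0.0507 to 0.123), and the rise over the mean of the 3 days kept its call without each array in turn.

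**Figure D1:**
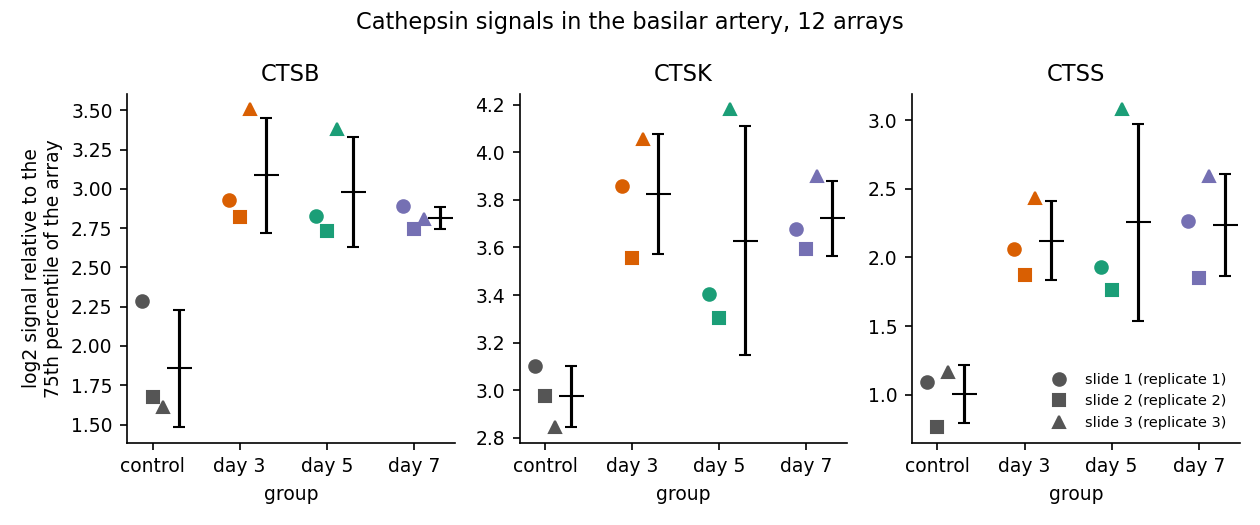
Log2 signal on the scale of the array's 75th percentile for the brightest probe of CTSB, CTSK and CTSS, on a vertical axis of its own for each gene, by group. Each symbol is 1 array, its shape gives the slide, and the bars are mean ± SD of 3 arrays; in each panel the 9 arrays after the hemorrhage lie above the 3 controls, and day 5 replicate 3 is the highest array for CTSK and CTSS.

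CTSK had the smallest differences of the 3 genes. The level of its brightest probe was 3.10, 2.98 and 2.85 in control replicates 1, 2 and 3 (mean 2.97 ± 0.13, SD, n = 3). It was 3.86, 3.56 and 4.06 on day 3, 3.40, 3.30 and 4.18 on day 5, and 3.68, 3.59 and 3.90 on day 7. Again no array after the hemorrhage overlapped the controls, but day 5 replicates 1 and 2 lay closest to them, whereas day 5 replicate 3 was the highest of all 12 arrays.

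CTSK rose on day 3 by 0.85 (SE 0.23, 95% interval 0.35 to 1.35, 1.80-fold, limma adjusted p = 0.0490), close to the threshold. The difference was 0.65 on day 5 (adjusted p = 0.196) and 0.75 on day 7 (adjusted p = 0.116), neither of them called, and the rise over the mean of the 3 days was 0.75 (adjusted p = 0.0349). Within slides 1, 2 and 3 the difference over the 3 days was 0.54, 0.51 and 1.20. With the slide as a block the adjusted p was 0.0336 on day 3 and 0.0226 over the 3 days. Only 1 of the 5 probes was called on day 3 and 2 of 5 over the mean of the 3 days, although the 5 changes on day 3 ran only from 0.78 to 0.85. The call of day 3 was lost when any array but day 5 replicate 3 was left out (adjusted p 0.0515 to 0.179). The call over the 3 days was lost without control replicate 1, 2 or 3, day 3 replicate 1 or 3, or day 7 replicate 1 or 3 (adjusted p 0.0554 to 0.105). Without day 5 replicate 3, CTSK was called on day 7 (adjusted p = 0.0409).

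CTSS, the elastase that works at neutral pH, had more than a doubling of its mean signal on each day, with the widest spread on day 5 (SD 0.72, n = 3). Its brightest probe was at 1.09, 0.77 and 1.16 in control replicates 1, 2 and 3 (mean 1.01 ± 0.21, SD, n = 3). It was at 2.06, 1.87 and 2.44 on day 3, 1.93, 1.76 and 3.08 on day 5, and 2.27, 1.85 and 2.59 on day 7. Replicate 3 was the highest and replicate 2 the lowest array in all 4 groups, and the groups after the hemorrhage did not overlap the controls.

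The differences of CTSS were 1.12 on day 3 (adjusted p = 0.0642), 1.25 on day 5 (adjusted p = 0.0823) and 1.23 on day 7 (adjusted p = 0.0752), none of them called by limma, and the rise over the mean of the 3 days was 1.20 (SE 0.26, 95% interval 0.62 to 1.78, 2.29-fold, adjusted p = 0.0215). With the slide as a block, CTSS was called on each day (adjusted p = 0.0127, 0.0156 and 0.0159 on days 3, 5 and 7) and over the 3 days (adjusted p = 0.00370). Within slides 1, 2 and 3 the difference over the 3 days was 0.99, 1.06 and 1.54. Without the block, 1 of its 5 probes was called on day 3, 0 of 5 on days 5 and 7, and 5 of 5 over the mean of the 3 days, and all 5 had an unadjusted p below 0.05 on each day. The call over the 3 days was lost without control replicate 1 (1.24, adjusted p = 0.0734) or control replicate 2 (1.08, adjusted p = 0.0935). Without day 5 replicate 3, CTSS was called on days 3 and 7 (adjusted p = 0.0145 and 0.0182).

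Over all 11 probes, 3 were called higher on day 3, 1 on day 5, 0 on day 7 and 8 over the mean of the 3 days, and 0 were called lower in any of these comparisons. All 11 had an unadjusted p below 0.05 on each of the 3 days, as had 5681, 3803 and 4691 of the 26431 tested probes on days 3, 5 and 7 (21.5%, 14.4% and 17.7%). On each day all 11 probes had their 3 arrays above the 3 controls, which held for 13.1% of the tested probes on day 3, 10.3% on day 5 and 12.3% on day 7, and for 5.21% over the 9 arrays of all days. The probes of 1 gene share most of their bases, so these counts describe 3 genes and not 11 independent values.

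**Figure D2:**
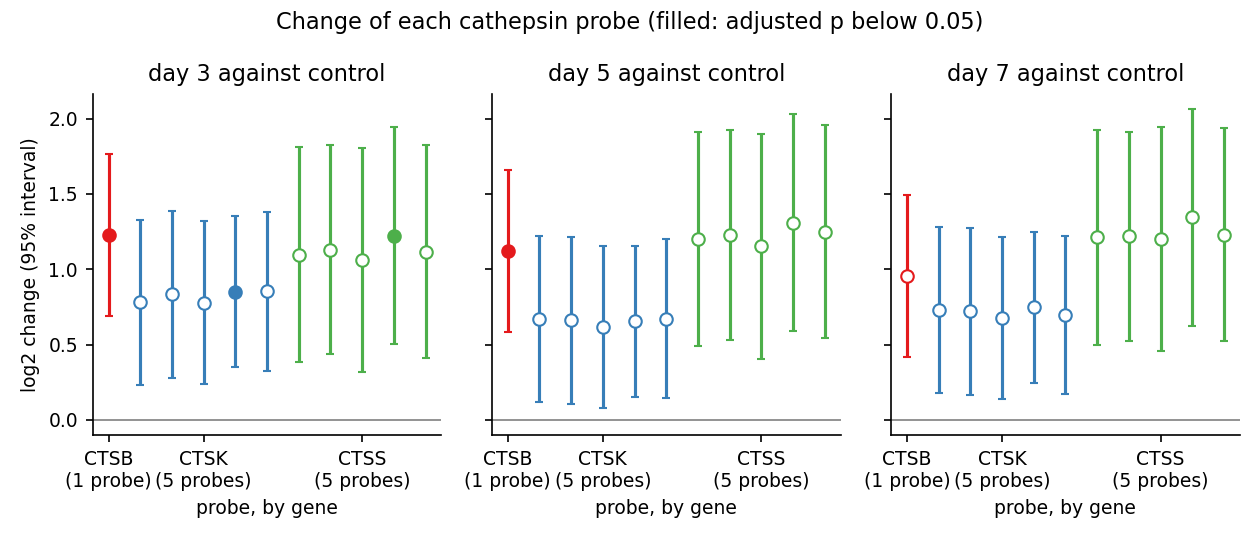
Log2 change against the controls of each of the 11 probes on days 3, 5 and 7, with 95% intervals from limma; colours separate the genes and filled points passed an adjusted p of 0.05. The probes of a gene give nearly the same change, and the intervals of all 11 lie above 0 on each day, while few points are filled.

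No difference between the days was called for any of the 11 probes, and 0 of them had an unadjusted p below 0.05 in any of the 3 comparisons of days (limma). In order of its group means, CTSB ran from control (1.86) through day 7 (2.82) and day 5 (2.98) to day 3 (3.09), CTSK from control (2.97) through day 5 (3.63) and day 7 (3.72) to day 3 (3.82), and CTSS from control (1.01) through day 3 (2.12) and day 7 (2.24) to day 5 (2.26). The 3 days after the hemorrhage were not separated in any of these orders. The intervals bound what these arrays can show: day 7 minus day 3 was -0.27 for CTSB (95% interval -0.81 to 0.27), -0.10 for CTSK (-0.60 to 0.40) and 0.11 for CTSS (-0.59 to 0.82). Over all tested probes, 0.0114% were called between days 5 and 3, 0.144% between days 7 and 3, and 0 between days 7 and 5, where 414 probes had an unadjusted p below 0.05.

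Differences between 2 probes on the same array need no scaling between arrays. They were compared between the 9 arrays after the hemorrhage and the 3 controls for 6 pairs, with cystatin C (CST3), the main secreted inhibitor of cysteine cathepsins, as the partner in 3 of them. Each test was an exact permutation test over arrays, two-sided, with adjustment over the 6 pairs, in which no p can fall below 0.00909. CTSB gained 1.25 relative to CST3, CTSK 0.90 and CTSS 1.35, each with an exact p of 0.00909 and an adjusted p of 0.0182. In these 3 pairs every array after the hemorrhage lay above every control. The pairs reuse the cathepsin values tested above, and the size of a gain depends on the partner. Over the mean of the 3 days CST3 differed by -0.15, and the other measured inhibitors CSTB, CSTA and AHSG by 0.71, 0.65 and 0.0087. None of these was called by limma, and pairs with CSTB, CSTA or AHSG were not tested.

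Among the 3 proteases, CTSK changed less than CTSB, by -0.35 (exact permutation p = 0.0364, adjusted p = 0.0436), and CTSS changed more than CTSK, by 0.45 (exact permutation p = 0.0364, adjusted p = 0.0436). In both pairs the arrays of the 2 sides overlapped. CTSS and CTSB differed by 0.10 (exact permutation p = 0.673), with day values of -0.11, 0.13 and 0.27. With permutation only within slides, the p of CTSK against CTSB did not pass after adjustment (exact permutation, adjusted p = 0.0750). Within slides 1, 2 and 3 that pair differed by -0.05, -0.59 and -0.42, and CTSS minus CTSK by 0.45, 0.56 and 0.34. Both protease pairs kept their call only without day 3 replicate 1 or day 7 replicate 2, and were not called when any other array was left out (exact permutation, adjusted p 0.0545 to 0.175). The 3 pairs with CST3 were not called without control replicate 1, 2 or 3 (exact permutation, adjusted p 0.0545 to 0.0727). With 2 controls left, no exact p of a pair can fall below 0.0364, so that these adjusted values say little about stability, and the differences from CST3 stayed between 0.78 and 1.56.

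**Figure D3:**
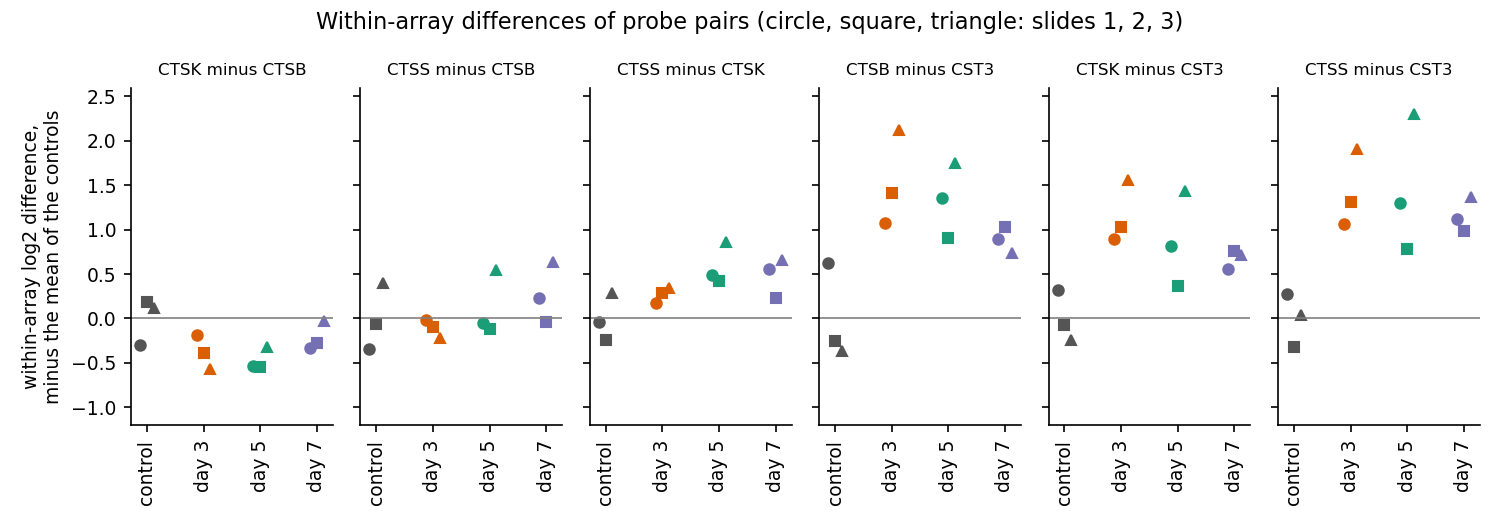
Within-array log2 difference of 6 pairs of probes, minus the mean of the 3 controls, by group; each symbol is 1 array and its shape gives the slide. The 9 arrays after the hemorrhage lie above the 3 controls in the 3 pairs with CST3, and overlap them in the 3 pairs of proteases.

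By Pearson correlation over the 12 arrays, which share their scaling and groups, the levels of CTSK and CTSS followed each other (r = 0.939), as did CTSB and CTSK (0.920) and CTSB and CTSS (0.885). These are descriptions without a test. Of 7284 other named genes, the 5 most like CTSB were NECAP2, which is associated with endocytosis (r = 0.975), LOC100359306, which the array describes as an Fc receptor for IgG (0.970), the aspartic protease CTSD (0.968), the leukocyte integrin subunit ITGB2 (0.963) and the macrophage complement receptor VSIG4 (0.959). On day 3 the differences of these 5 from the controls were 0.75, 2.36, 1.99, 1.30 and 1.84.

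The 5 genes most like CTSK were CTSC, which activates granule serine proteases (r = 0.970), the membrane scaffold MPP1 (0.965), YIPF6 (0.940), CTSS itself (0.939) and the lipid transporter family member ABCA6 (0.938). The array describes the YIPF6 probe as a relative of another family member, so that its name is uncertain. The 5 genes most like CTSS were the apoptosis inhibitor BCL2A1 (0.975), MLANA (0.966), the leukocyte adaptor LCP2 (0.947), the cytochrome P450 gene CYP2J2 (0.946) and the ribonuclease RNASE6 (0.945). Likeness here is of pattern and not of size: on day 3 CYP2J2 differed from the controls by 0.37 and ABCA6 by 3.49.

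CTSK and CTSS are neighbours. In the RefSeq table of assembly mOryCun1.1, used for names and order only, 0 genes of any kind lie between them. Around the pair, 3 other genes among the nearest 4 protein-coding genes on either side had a tested probe. These were ARNT, a partner of hypoxia-inducible factors, the histone methyltransferase SETDB1 and the survival gene MCL1. None of the 3 was called on any day: over the mean of the 3 days the differences were -0.0065 for ARNT (adjusted p = 0.985), -0.41 for SETDB1 (adjusted p = 0.0979) and 0.11 for MCL1 (adjusted p = 0.799). Beside CTSB, only FDFT1, which encodes squalene synthase, was measured, with a difference of -0.24 over the 3 days (adjusted p = 0.358). These genes were chosen by position after the values of the cathepsins were known.

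Of 15 other cathepsin genes listed, 9 had a tested probe. CTSD and CTSH rose on every day, and CTSL rose on day 3, while the other 6 were not called. That makes 3 of 9 called higher on day 3, 2 on day 5 and 2 on day 7, against 4.85%, 1.93% and 1.97% of 7313 named genes, and 0 called lower. The median difference of the 9 was 0.87 on day 3, 0.69 on day 5 and 0.19 on day 7, against medians of -0.0045, 0.024 and 0.035 over all named genes. Without control replicate 2 the counts were 2, 2 and 2.

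CTSD, the main aspartic protease of the lysosome, was at 0.79, 0.13 and -0.26 in the controls, at 2.12, 2.07 and 2.44 on day 3, at 1.73, 1.58 and 2.13 on day 5 and at 1.83, 1.62 and 1.74 on day 7. Its rise was 3.98-fold on day 3 (limma adjusted p = 0.000902), 3.02-fold on day 5 (adjusted p = 0.00685) and 2.85-fold on day 7 (adjusted p = 0.00980). CTSH, a cysteine protease with aminopeptidase activity, was at 2.10, 1.79 and 2.11 in the controls and between 3.13 and 3.74 on the 9 arrays after the hemorrhage. It rose 2.76-fold, 2.75-fold and 2.45-fold on days 3, 5 and 7 (adjusted p = 0.000934, 0.00218 and 0.00497), and its second probe was called on each day as well. CTSL, a cysteine protease related to CTSK and CTSS, rose by 1.16 on day 3 (adjusted p = 0.0229) and differed by 0.88 and 0.95 on days 5 and 7, neither called; without control replicate 2 the call of day 3 was lost (1.02, adjusted p = 0.0718). Its 3 probes gave 1.12 to 1.22 on day 3. A further gene that RefSeq leaves without a symbol, LOC100344030, is described as a cathepsin L1-like protein and was named after its values were seen. It rose by 1.16 on day 3 (adjusted p = 0.0126).

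The remaining cathepsins did not pass the test. CTSC differed by 0.88, 0.69 and 0.66 on days 3, 5 and 7, and its arrays did not overlap the controls (adjusted p 0.0835 to 0.262). CTSZ, a carboxypeptidase, was at 3.39 ± 0.04 (SD, n = 3) in the controls and differed by 0.11, 0.15 and 0.09, with 95% intervals that lie between -0.23 and 0.47. CTSO, CTSF and CTSW, the last known from cytotoxic lymphocytes, differed by at most 0.87 in either direction. CTSE ranged over the controls alone from -2.67 to 3.81 and could not be read. Whether CTSB, CTSK and CTSS changed by more or less than the other cathepsins was not tested.

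**Figure D4:**
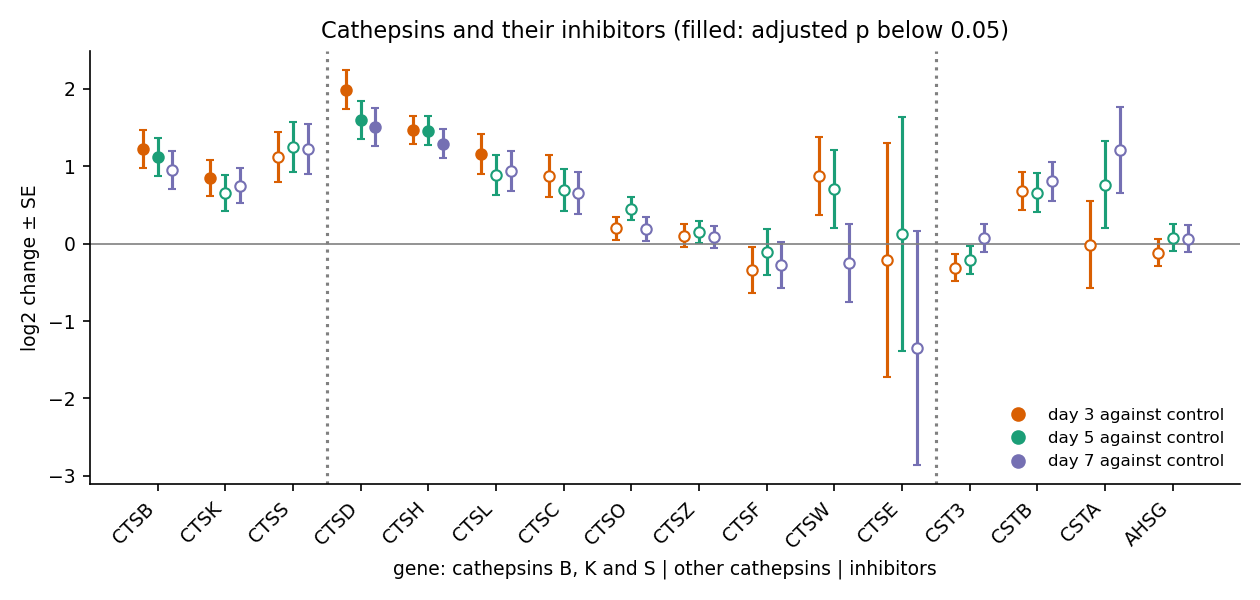
Log2 change ± SE against the controls on days 3, 5 and 7, 1 probe per gene, for CTSB, CTSK and CTSS, the 9 other measured cathepsins and 4 cathepsin inhibitors; filled points passed an adjusted p of 0.05. CTSD and CTSH are filled on all 3 days, no inhibitor is filled, and CTSE has the widest errors.

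No inhibitor of the cathepsins was called on any day. Of 13 inhibitor genes listed, 4 had a tested probe, and on each day 1 of the 4 was higher at an unadjusted p below 0.05 (0, 0 and 1 without control replicate 2). Of all named genes, 12.3%, 9.28% and 10.4% were higher at that threshold on days 3, 5 and 7. CST3 had a strong signal, at 8.32, 8.58 and 8.62 in the controls, 8.50, 8.06 and 8.03 on day 3, 8.12, 8.48 and 8.28 on day 5 and 8.65, 8.37 and 8.72 on day 7. Its differences were -0.31, -0.22 and 0.07, and the groups overlapped. A second CST3 probe gave 0.07 on day 3. CSTB, or stefin B, an inhibitor inside the cell, was at 6.16 ± 0.50 (SD, n = 3) in the controls and differed by 0.68, 0.66 and 0.80, not called on any day (limma adjusted p = 0.134, 0.232 and 0.118). These differences were 0.43, 0.41 and 0.55 without control replicate 2. With the slide as a block, 1 inhibitor passed on day 7. CSTA, or stefin A, differed by -0.01, 0.76 and 1.21 with wide spread in the controls (SD 1.12), and without control replicate 2 by -0.66, 0.11 and 0.56. It was well above background on 2 of the 3 controls. AHSG, or fetuin-A, differed by -0.12, 0.08 and 0.07. Of 2 further tested AHSG probes, neither called, 1 was well above background on 0 and the other on 1 of the 3 day 3 arrays, so that no difference is given for them.

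The cathepsins were set beside other lysosomal genes. Of 20 other lysosomal hydrolases measured, 1 rose on day 3, 2 on day 5 and 5 on day 7, and 0 fell. Of all named genes 4.85%, 1.93% and 1.97% were called higher, so that the count of day 3 lies near that share. Their median difference was 0.39, 0.41 and 0.31. GUSB, or beta-glucuronidase, rose by 1.37, 1.32 and 1.46 (limma adjusted p = 0.00514, 0.0121 and 0.00771). ARSA, the arylsulfatase that degrades sulfatide, rose on days 5 and 7 by 1.002 and 1.11 (adjusted p = 0.0243 and 0.0142), and on day 3 it differed by 0.70 (adjusted p = 0.0545). LIPA, the lysosomal acid lipase, rose on day 7 by 1.34 (adjusted p = 0.0384). Without control replicate 2 the counts were 1, 2 and 3.

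Of 25 measured genes of the lysosomal membrane, sorting and the proton pump, 3 rose on day 3 and 0 on days 5 and 7, where 5 and 8 genes were higher at an unadjusted p below 0.05 (2 and 5 without control replicate 2). The 3 were SCARB2, the receptor that carries glucocerebrosidase to the lysosome (0.89, adjusted p = 0.0427), the tetraspanin CD63 (0.66, adjusted p = 0.0208) and the proton pump subunit ATP6V1B2 (0.91, adjusted p = 0.0153). Of all named genes, 4.85% were called higher on day 3. On days 5 and 7, 9.28% and 10.4% of all named genes were higher at an unadjusted p below 0.05. The median difference of the 25 was 0.26, 0.21 and 0.27 on days 3, 5 and 7. The medians were 0.16, 0.19 and 0.11 without control replicate 2, and 1 of the 25 was then called on day 3; SCARB2 and CD63 lost their calls (adjusted p = 0.0815 and 0.0606).

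Of 7 measured genes of class II antigen presentation, where cathepsin S acts, 1 was called higher on each day. Of all named genes, 4.85%, 1.93% and 1.97% were called higher on days 3, 5 and 7. The median differences of the 7 were 0.52, 0.89 and 0.26, and -0.020, 0.36 and -0.092 without control replicate 2. The called gene was CD86, a costimulatory receptor of antigen-presenting cells, which rose by 1.41, 1.63 and 1.70 (limma adjusted p = 0.00697, 0.00592 and 0.00555). Its probe was well above background on 1 of the 3 controls and on all 3 arrays of each later day, so that its level in the controls is uncertain. The probe entered the test through those later days alone, where it was high, so its calls are no independent support for a rise. Of 6 measured osteoclast-type genes, the company cathepsin K keeps in bone, 0 were called higher, and 3, 0 and 1 were higher at an unadjusted p below 0.05 on days 3, 5 and 7. Of all named genes, 12.3%, 9.28% and 10.4% were higher at that threshold. Means lay above the controls for 5, 4 and 5 of the 6 on days 3, 5 and 7. Their median differences were 0.64, 0.18 and 0.47, and the highest were 3.02, 1.06 and 3.11. Without control replicate 2, however, 2 of the 6 were called higher on each day. Of all named genes, 3.12%, 1.39% and 1.18% were called higher in that setting. MMP9, a gelatinase in that list, fell by 1.71 on day 5 and by 2.41 on day 7 (adjusted p = 0.0249 and 0.00441), and on day 3 its difference was -0.24. With all arrays, 0.219% and 0.574% of all named genes were called lower on days 5 and 7. Without control replicate 2 the call of MMP9 on day 5 was lost (-1.59, adjusted p = 0.0823).

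Of 16 measured genes of elastic and collagen matrix, 3 rose and 1 fell on day 3, 1 rose on day 5 and 2 rose on day 7. Elastin itself (ELN) and the collagen gene COL1A2 had no probe under these names and were not measured. Of all named genes, 4.85%, 1.93% and 1.97% were called higher and 2.02%, 0.219% and 0.574% lower on the 3 days. COL1A1, the main chain of type I collagen, rose by 1.56, 1.62 and 1.57 (limma adjusted p = 0.00254, 0.00453 and 0.00578). COL3A1, of type III collagen, rose on days 3 and 7 by 0.93 and 1.04 (adjusted p = 0.0328 and 0.0375), and the microfibril gene FBN1 on day 3 by 1.15 (adjusted p = 0.0458). FBLN5, which helps to assemble elastic fibres, fell by 0.95 on day 3 (adjusted p = 0.0441), a call that was lost without control replicate 2. With the slide as a block, 5 rose on day 3 and 2 on day 5.

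Of 17 listed markers of macrophages, cells rich in lysosomes, 8 were measured. Their means lay above the controls for 7 of the 8 on days 3 and 5 and for 8 of 8 on day 7, with ITGAM, an integrin subunit, at -0.087, -0.13 and 0.19. Of the 8, 5 were called higher on day 3, 6 on day 5 and 6 on day 7. Of all named genes, 4.85%, 1.93% and 1.97% were called higher on those days. The median differences of the 8 were 1.35, 1.76 and 1.59, against -0.0045, 0.024 and 0.035 over all named genes. Without control replicate 2, an alternative chosen after seeing the data, 3, 4 and 4 of the 8 were called higher. The shares of all named genes were then 3.12%, 1.39% and 1.18%. The summed signal of the 8, in units of the array's 75th percentile, was 7.57 to 12.1 in the controls. It was 23.5 to 27.4 in the day 3 arrays, 28.3 to 35.8 in those of day 5 and 25.1 to 32.3 in those of day 7, with no overlap with the controls. CD68, a protein of macrophage lysosomes, rose by 2.17, 1.88 and 1.997, and CD14, MRC1 and CYBB had differences of 1.44, 1.37 and 0.95 on day 3, of which that of CYBB was not called (limma adjusted p = 0.0555); MRC1 lost its call without control replicate 2 (adjusted p = 0.0631). CSF1R, CD163, AIF1, TYROBP, FCER1G, C1QA, C1QC, ADGRE1 and SPI1 had no tested probe under these names. The part of these cells in the cathepsin signals was not tested.

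Of 12 smooth muscle markers, 11 were measured, and their summed signal was 1007 to 1123 in the controls and 673 to 907 on the 9 arrays after the hemorrhage. The contractile genes of an artery wall were thus present under the tissue label. Of the 11, MYL9, a myosin light chain, fell on day 3 (by 0.64, limma adjusted p = 0.0451; not called without control replicate 2), and 0 were called on days 5 and 7, where 5 and 7 had an unadjusted p below 0.05. The smooth muscle markers at that threshold were all lower than in the controls. Means lay above the controls for 1, 0 and 1 of the 11, with median differences of -0.43, -0.46 and -0.59 on days 3, 5 and 7. Of all named genes, 2.02% were called lower on day 3. Of 7 endothelial markers 0 were called on a single day, and 3, 1 and 3 were lower at an unadjusted p below 0.05 on days 3, 5 and 7. Of all tested probes, 21.5%, 14.4% and 17.7% had an unadjusted p below 0.05 on those days. ESAM and CLDN5, of endothelial junctions, differed by -0.55 and -0.64 on day 3, when 2 of the 7 had means above the controls. The summed signal of the 7 was 61.5 to 80.0 in the controls and 75.2 to 84.4 on day 3. It was 47.0 to 75.2 on day 5 and 59.8 to 75.2 on day 7. Over the mean of the 3 days ESAM fell by 0.71 (adjusted p = 0.0468), a call that was lost without control replicate 2 (adjusted p = 0.140). Neutrophil markers gave 0 calls of 5, and 0 at an unadjusted p below 0.05, with S100A8 and S100A9 at differences of 1.32 and -0.23 on day 3; without control replicate 2 that of S100A8 was 0.82. Of 6 lymphocyte markers 1 was called higher on day 3, against 4.85% of all named genes. It was CD79B, a signalling chain of the receptor of B cells, at least 1.75-fold higher than in the controls (limma adjusted p = 0.00708). Its probe entered the test through the day 3 arrays alone, where it was high, so the call is no independent support for a rise. The fold is a bound because CD79B was not well above background on any control. In place of the control level stands the mean, over the controls, of either the weakest signal that was well above background on that array or the probe's own, whichever is higher. The fibroblast and leptomeningeal markers moved both ways: on day 3 LUM, or lumican, rose by 1.13 (adjusted p = 0.0172; not called without control replicate 2), and PTGDS, SLC22A6 and SLC22A8 fell by 1.59, 2.56 and 3.24 (adjusted p = 0.00290, 0.00514 and 0.0149). Of the 7 measured markers of that list, 1 was called higher and 3 lower on day 3. Of all named genes, 4.85% were called higher and 2.02% lower on that day. The summed signal of the 7 was 908 to 1963 in the controls. It was 439 to 526 in the day 3 arrays, 731 to 759 in those of day 5 and 833 to 1077 in those of day 7. The part of these cells in the cathepsin signals was not tested either. The globins HBA and HBB2 differed by 1.40 and 1.48 on day 7 and were not called (limma adjusted p = 0.164 and 0.2003). Of 3 measured erythroid markers, 2 were higher on day 7 at an unadjusted p below 0.05 (0 without control replicate 2), against 10.4% of all named genes. The summed signal of the 3 was 101 to 162 in the controls and 63.1 to 353 on day 3. It was 171 to 469 on day 5 and 305 to 382 on day 7. The neural genes SYT1 and ENO2 were not called on any day.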

How the data were processed

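The authors deposited the scanner output of 12 single-colour arrays; the submitters' processing notes name Agilent Feature Extraction 9.5.1.1. Its processed signal, per the file headers, is an intensity with the background subtracted and no scaling between arrays. Raw intensity values of spot and background served for normexp only. The deposited spot flags, which are 0 or 1, are of no other use than to filter spots. In the value table that the authors deposited, a linear intensity, every column has the same median (27.0), and it was an alternative only.

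Control spots and outlier spots were left out, log2 signals were taken relative to the array's 75th percentile, and spots of a probe were averaged. The 26431 probes that stood well above background throughout a group were tested in 1 two-sided fit of all groups with limma 3.58.1 (R 4.3.3), without a block. A probe could thus enter the fit through only the group where it was high. Probes were called at an adjusted p below 0.05. Each gene is represented by its brightest tested probe. Probes were named from the array's accessions, names and descriptions with RefSeq names (of all probes, 22195 had 1 gene, 200 several, 21228 none). Within-array differences were tested with scipy 1.17.1 (Python 3.11.15). On simulated data for day 3 the fit on 26325 probes recovered 48% of 2-fold and 86% of 4-fold changes with 6 wrong calls. The simulated noise was independent between probes, with no slide effect and no deviant array, and few probes were changed. Its rates therefore need not hold for these arrays.

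The members and lists were chosen with earlier results of these data known. Named genes were the 3 cathepsins, every measured other cathepsin and inhibitor, up to 4 called members of each further list by smallest adjusted p over the mean of the 3 days, or the 2 of smallest p where none was called, and the 5 genes most like each cathepsin. One gene that this rule names is not reported here. Each replicate number was 1 slide, per the file headers. Deviations from the group means correlated by -0.15 to 0.39 (median 0.11) between arrays of the same slide over 18 pairs, and by -0.40 to 0.26 between slides. Alternatives were other scalings, background correction, filters, slide blocks, array weights, an intensity trend, fewer groups, and each array left out. With 3 arrays a group, precision is limited by their number.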

Additional observations from a re-analysis of the deposited data

How the results depend on the processing

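Each of 281 differences of the cathepsins from the controls under an alternative had the direction of the main value. On the main scale every array after the hemorrhage lay above every control for all 11 probes. Leaving out an array, array weights, filters or fewer groups therefore could not turn a sign. The calls were less stable. With only the groups compared, CTSB on day 3 (1.23) and day 5 (1.12) and CTSK on day 3 (0.85) lost their calls and CTSS on day 3 (1.12) gained one, with 897, 210 and 292 probes called on days 3, 5 and 7, 0 between days 5 and 3 and 12 between days 7 and 3. With normexp background correction, CTSB on day 5 (0.82), CTSK over the 3 days (0.67), CTSK minus CTSB (-0.27) and CTSS minus CTSK (0.35) lost their calls, and CTSB (0.034) and CTSS (0.14) between days 7 and 5 and CTSS between days 5 and 3 (-0.079) turned sign. It called 1007, 221, 253 and 899 probes on day 3, day 5, day 7 and over the 3 days and 56 between days 5 and 3, and among the lists 1 membrane gene on day 3, 2, 1 and 2 hydrolases on days 3, 5 and 7, 0 class II genes on days 5 and 7 and 1 matrix gene on day 7. Without the filter on dim probes, CTSB on day 5 (1.12) and CTSK on day 3 (0.85) and over the 3 days (0.75) lost their calls, with 974, 345, 305 and 1118 probes on days 3, 5 and 7 and over the 3 days and 3 between days 7 and 3. With array weights, CTSB on day 5 (0.76) and CTSK on day 3 (0.68) and over the 3 days (0.56) lost theirs, CTSS on days 3 (0.96) and 7 (1.16) gained them, and CTSB (0.045) and CTSS (0.32) between days 7 and 5 and CTSS between days 5 and 3 (-0.13) turned sign. It called 1367 and 1388 probes on days 5 and 7, 860 between days 5 and 3 and 280 between days 7 and 3. Quantile scaling (0.73), the authors' table (0.75) and the mean of the probes (0.82) ended the call of CTSK on day 3. The authors' table called 20 probes between days 7 and 3, and quantile scaling 1 membrane gene on day 7, 2 class II genes on day 3 and 1 matrix gene on days 3 and 7. CTSS between days 7 and 5 turned sign with the mean of the probes (0.013) and median scaling (0.028), where 4 probes were called between days 7 and 3. The intensity trend gave CTSS a call on day 3 (1.12). The filter on all 12 arrays called 310 probes on day 5 and 0 between days 5 and 3.

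With the replicate block (the slide), CTSS gained its call on days 3 (1.12), 5 (1.25) and 7 (1.23), CTSK minus CTSB lost it (-0.35), and 954 probes were called on day 7 and 2 between days 7 and 3. The block called 1 inhibitor on day 7, 1 and 2 membrane genes on days 5 and 7, 3 hydrolases and 2 class II genes on day 3, and of the matrix genes 5 higher on day 3, 2 higher and 1 lower on day 5 and 1 lower on day 7. As a random block it gave calls to CTSB on day 7 (0.96) and to CTSS on all days (1.12, 1.25 and 1.23), with 1030 probes on day 7 and 68 between days 7 and 3.

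Leaving out each array in turn gave 1.02 to 1.44 for CTSB on day 3 and 0.92 to 1.34 on day 5, 0.73 to 0.98 for CTSK on day 3, 0.66 to 0.81 on day 7 and 0.66 to 0.81 over the 3 days, and 0.96 to 1.24 for CTSS on day 3, 1.05 to 1.42 on day 7 and 1.06 to 1.28 over the 3 days. Between days 5 and 3 it gave -0.31 to 0.10 for CTSB and -0.28 to 0.38 for CTSS, between days 7 and 3 -0.24 to 0.015 for CTSK and -0.065 to 0.31 for CTSS, and between days 7 and 5 -0.29 to 0.038 for CTSB, -0.069 to 0.37 for CTSK and -0.27 to 0.39 for CTSS. The pairs ran from -0.50 to -0.26 for CTSK minus CTSB, -0.076 to 0.30 for CTSS minus CTSB, 0.32 to 0.59 for CTSS minus CTSK, and 1.07 to 1.56, 0.78 to 1.06 and 1.19 to 1.49 for CTSB, CTSK and CTSS minus CST3. Probes called ran from 789 to 1943 on day 3, 280 to 685 on day 5, 229 to 1692 on day 7, 820 to 2616 over the 3 days, 0 to 5 between days 5 and 3 and 2 to 70 between days 7 and 3. The list counts without control replicate 2 stand beside the results, and the matrix list then had 0 lower on day 3 and 2 higher on day 5. The cause of these changes was not tested.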
